A study of Rattus norvegicus with 24 samples.

Results

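Soleus muscle of wheel-trained rats was compared with that of sedentary rats 24 h after both had run. All arrays titled as trained and all titled as sedentary were used, which gave 16 of the 24 arrays of the series, 8 per group. The rats were female and about 14 weeks old, and no strain is given in the labels. Sedentary rats (SED) lived for 8 weeks in normal cages. Trained rats (TR) had a running wheel in the cage for 8 weeks and used it at will. At the end of that period every rat of both groups ran for 1 h in a forced wheel at 20 m/min, and the soleus was taken 24 h later and frozen. No group was left without this run, so a difference between the groups is one between trained and untrained muscle at that time after exercise, and the response to the run itself cannot be told apart from the resting state. The remaining 8 arrays (DETR, 4 weeks with a wheel and then 4 weeks without) entered the model only to help estimate the spread and the slides.

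The soleus is a postural muscle of the calf that in rats consists mostly of slow, oxidative fibres. Each fibre type is built from its own isoforms of myosin, troponin and related proteins, and endurance running is known to shift fibres towards more oxidative forms. Embryonic and cardiac isoforms are made in developing muscle and return in fibres that regenerate or adapt. A single bout of unaccustomed running can also damage fibres, after which immune cells enter and satellite cells, the stem cells of muscle, divide.

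RNA of the mid-belly was labelled with Cy3, and each rat had 1 one-colour Agilent array. Values are log2 of the processed spot signal minus the array's 75th percentile, so 0 is the signal that 75% of the spots of that array do not exceed, and differences are TR minus SED. Levels of different probes are not comparable with each other. The arrays lay on 3 slides. Slide 2 held SED3 to SED6 and TR1 to TR4, slide 3 held SED7, SED8 and TR5 to TR8 and was scanned on another day, and slide 1 held SED1 and SED2 with no trained array. Group and slide are therefore partly mixed, and every fitted difference has slide as a term.

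The defining markers of slow muscle were among the brightest of 20342 features. Over the 16 arrays the median signal of Tnnt1 (slow troponin T) ranked 3, that of Mb (myoglobin) ranked 4, Myh7 (slow myosin heavy chain) ranked 6 and Tnni1 (slow troponin I) ranked 19. Markers of other cells were present at lower ranks, with Hbb (beta globin) at 495, Pecam1 (endothelium) at 3512, Cd68 (macrophages) at 7376, Adipoq (adipocytes) at 11027 and Tnmd (tendon) at 12356. As levels of different probes are not comparable, these ranks show signal and do not measure the amount of each cell type. Pax7, which marks satellite cells, was not well above background on enough arrays to be tested. In bulk tissue, fewer cells of a type and less RNA per cell cannot be told apart.

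Array quality differed between the slides and within them. The 75th percentile of the processed signal was 1150 to 1493 scanner units on slide 2 apart from TR2, at 562. It was 254 and 339 on the sedentary arrays of slide 3, and 133, 307, 95.5 and 124 on TR5 to TR8. The share of probes well above background was 50.3% on TR5, 47.9% on TR7 and 53.6% on TR8, and at least 62.4% on each of the other 13 arrays. TR2 stood apart in another way. Of its probes, 11.1% had replicate spots more than 4-fold apart, against 0.827% to 5.14% on the other 15 arrays. Within slides, the trained arrays had a share of probes above background 4.51 percentage points lower, which 1050 exact permutations of the labels did not separate (two-sided p = 0.239). This value averages unlike slides. The mean share was 73.9% in trained and 73.6% in sedentary arrays on slide 2, and 54.6% and 66.4% on slide 3. Values without TR2 are given beside several results.

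**Figure D1:**
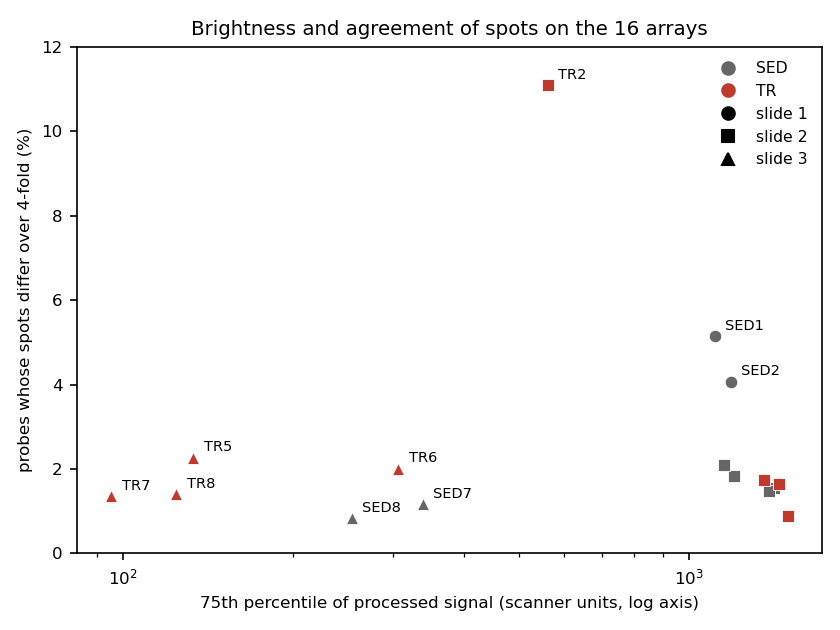
Brightness of the 16 arrays (75th percentile of processed signal in scanner units, log axis) against the share of probes whose replicate spots differed more than 4-fold (percent), with colour for the group and shape for the slide. TR2 is alone at 11.1%, and TR5, TR7 and TR8 are the dimmest arrays at 95.5 to 133 scanner units.

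Across all genes, no difference between trained and sedentary soleus stood out from the spread between arrays in the main test. Of 20342 features, 0 passed an adjusted p of 0.05 in the limma test with slide as a term (Benjamini-Hochberg over all features), which is 0% of them. At an unadjusted p under 0.05 there were 2121 features, or 10.4%, of which 1285 (6.32%) were higher and 836 (4.11%) lower in trained rats. Where no feature differs, a share of about 0.05 is expected to have such a p. With only the trained and sedentary arrays in the fit the count was 1165. By sign alone 52.8% of all features were higher and 47.2% lower. The signed median difference over all features was 0.01, which does not measure how large single differences were. The median standard error of a feature's difference was 0.17. Each array was also weighted by a quality estimated from the scatter of these same values. TR2 had a weight of 0.13 and TR5, TR7 and TR8 weights of 0.23, 0.14 and 0.16. TR6 had 0.67, and TR1, TR3 and TR4 had 1.59, 1.27 and 3.14. The trained side of the weighted fit thus rests mostly on TR1, TR3 and TR4, all of slide 2. With these weights 81 features passed (0.398%), 43 higher (0.211%) and 38 lower (0.187%).

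The slides share no array, so each gave its own view of the same contrast. In a model with 1 mean per group and slide, with the spread taken from all 24 arrays, 0 features passed on slide 2 (0%). On slide 3 there were 2 (0.00983%), Pax1 and Pde1a. Slide 3 fitted without the other slides gave 0. Neither gene was among the 28 that passed on slide 3 with quantile normalisation or the 30 in the authors' normalised values. Pax1, a developmental transcription factor, was higher by 1.85 on slide 3 (limma adjusted p = 0.0221) and differed by -0.11 on slide 2. Pde1a, a phosphodiesterase, was higher by 1.23 on slide 3 (limma adjusted p = 0.0425) and by 0.17 on slide 2. The difference between the slides passed the limma test for 0 features (0%), with 1315 at an unadjusted p under 0.05 (6.46%).

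Agreement of direction between the slides was modest. Over all features 54.1% had the same sign on both slides. Of the 1166 features with p under 0.05 on slide 2, 63.9% kept their sign on slide 3, and 60.5% of 1533 did so when TR2 was left out. Of the 100 features highest in trained rats on slide 2 by p-value, 77 were also higher on slide 3, against 50.2% of all features higher on slide 2. Of the 100 lowest by p-value, 64 were also lower, against 59.1% of all features lower on slide 2. On slide 2 the trained arrays lay wholly above the sedentary ones for 548 features (2.69%) and wholly below for 448 (2.2%). On slide 3, with only 2 sedentary arrays, these were 868 (4.27%) and 1459 (7.17%). With no overlap on both slides, 47 features were higher (0.231%), 62 were lower (0.305%) and 34 went in opposite directions (0.167%).

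**Figure D2:**
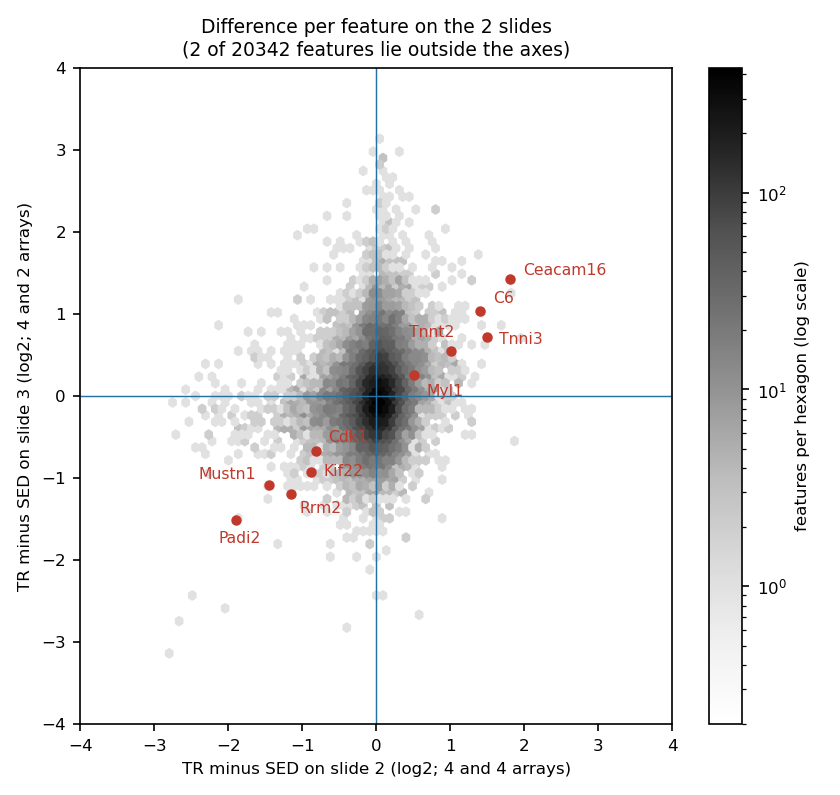
Difference of each feature between trained and sedentary arrays (log2) on slide 2 (horizontal, 4 and 4 arrays) and slide 3 (vertical, 4 and 2 arrays), with the shade giving the number of features per hexagon on a log scale; 2 features lie outside the axes. Named genes with the same sign on both slides stand away from the centre, where most features lie. The same sign on both slides was part of the rule for naming several genes, so their agreement is not independent.

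The clearest difference between the groups was in embryonic myosin. Myh3 encodes the myosin heavy chain of developing and regenerating fibres, and the array has 2 probes for it. On its dimmer probe the sedentary rats had values of 2.59 to 3.74 (median 3.42) and the trained rats 3.98 to 5.20 (median 4.92). Every trained array was above every sedentary array, and all 16 were well above background. When all 23422 probes were tested in place of 1 per gene, 2 passed (0.00854%), and this probe came first. It rose by 1.36 ± 0.16 (SE, n = 8 and 8), or 2.56-fold, with a limma adjusted p of 0.000521. The difference of the group means was 1.26 on slide 2 and 1.28 on slide 3. Leaving out each array in turn kept the fitted difference between 1.27 and 1.48.

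The brighter probe of Myh3, the one taken for the gene by rule, gave the same picture on all arrays but one. Sedentary values were 3.68 to 4.94 (median 4.32). Trained values were 5.19 to 5.91 on 7 arrays and 2.11 on TR2. The groups did not overlap apart from TR2. On that array the 2 spots of the probe read -2.08 and 6.30, so the mean of 2.11 lies between values more than 4-fold apart. With TR2 in the fit the difference was 0.67 ± 0.39 (limma adjusted p = 0.548). Without TR2 it was 1.16 (limma adjusted p = 0.00327, with 0.00983% of features passing), and with only the values of disagreeing spots left out it was 1.16 ± 0.15 (limma adjusted p = 0.00216). In the authors' normalised values it was 1.13 (limma adjusted p = 0.0151). The sequences of the probes were not used here, so which myosin transcripts each one can bind was not tested.

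Cardiac troponins were also higher in trained rats, without passing the test. Tnnt2, the troponin T of heart and embryonic muscle, was 0.93 to 1.70 (median 1.30) in sedentary and 1.48 to 2.79 (median 2.13) in trained rats. On slide 2 its trained values were 2.23, 2.79, 2.32 and 1.96 and its sedentary ones 1.36, 1.18, 1.24 and 1.49, with no overlap. The difference was 0.84 ± 0.19 (limma adjusted p = 0.167), and 1.00 on slide 2 and 0.54 on slide 3. A second Tnnt2 probe differed by 0.98 ± 0.23. Tnni3, cardiac troponin I, was higher by 1.11 ± 0.26 (limma adjusted p = 0.169), and by 1.49 on slide 2 and 0.71 on slide 3. Its trained and sedentary values did not overlap on slide 2 and did on slide 3.

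The wider list of embryonic and cardiac isoforms did not move as one. Of its 11 measured members 7 were higher and 4 lower, with 2 at an unadjusted p under 0.05 each way, against 6.32% and 4.11% of all features. Its median difference was 0.17 beside 0.01 for all features, and it was 0.08 without TR2 and 0.06 with array weights. It turned to -0.03 with quantile normalisation and -0.04 in the authors' normalised values, and the median of all features was also -0.03 and -0.04 there. The lower members included Ankrd1 and Csrp3, which sense stretch in the sarcomere. Ankrd1 differed by -1.83 ± 0.63 (limma adjusted p = 0.355) and was not well above background on TR6, TR7 and TR8. Csrp3 differed by -1.10 ± 0.49 (limma adjusted p = 0.451), and by -0.51 without TR2, whose spots of that probe disagreed.

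Myl1, an essential light chain of fast myosin, was slightly higher in trained rats on both slides. On slide 2 the trained values were 7.11, 7.42, 7.23 and 7.11 and the sedentary ones 6.70, 6.76, 6.61 and 6.78. On slide 3 the trained values were 6.28 to 6.41 and the sedentary ones 6.26 and 5.90. Neither slide showed overlap, although the level itself differed between slides. The difference was 0.41 ± 0.08, or 1.33-fold (limma adjusted p = 0.136), and 0.0112 with array weights.

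**Figure D3:**
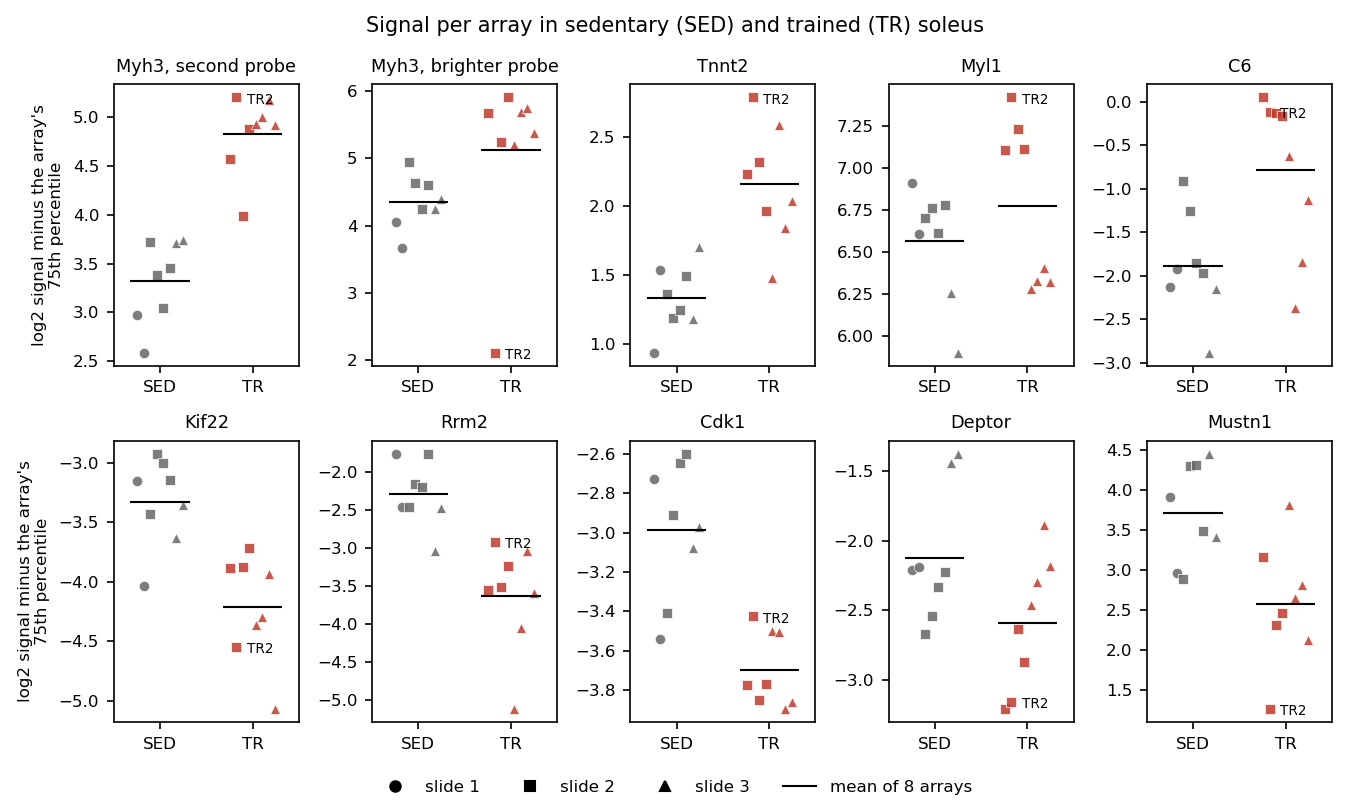
Values per array (log2 signal minus the array's 75th percentile) of both Myh3 probes and of 8 other genes in sedentary (grey) and trained (red) soleus, with shape for the slide and a line at the mean of 8 arrays. On the dimmer Myh3 probe all trained arrays lie above all sedentary ones, and on the brighter probe TR2, at 2.11, is the exception.

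The promoters of these contractile genes are shown because they are the members that led the comparison, in the RefSeq annotation of build GRCr8 and over the 250 bases before the start site. Capitals mark the letters found in a search of both strands for the word CATTCC, the word CAGCTG and the word TATAAA. Of 33469 promoter windows of this length, 12.1% hold CATTCC, 12.9% TATAAA, and 4007 windows CAGCTG. Myh3 lies on the plus strand at chr10:52268935-52269184 and has TATAAA beginning 30 bases before the start. Tnnt2 has 2 entries, of which the first, on the plus strand at chr13:49818873-49819122, holds CAGCTG and CATTCC. The window of Tnni3 held none of these words, and that of Myl1 is not shown. A match describes the letters only.
Myh3: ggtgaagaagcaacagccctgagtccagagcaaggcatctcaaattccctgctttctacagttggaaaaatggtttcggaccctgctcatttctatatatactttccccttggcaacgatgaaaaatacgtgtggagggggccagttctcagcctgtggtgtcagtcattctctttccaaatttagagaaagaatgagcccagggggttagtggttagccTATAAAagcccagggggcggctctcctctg
Tnnt2: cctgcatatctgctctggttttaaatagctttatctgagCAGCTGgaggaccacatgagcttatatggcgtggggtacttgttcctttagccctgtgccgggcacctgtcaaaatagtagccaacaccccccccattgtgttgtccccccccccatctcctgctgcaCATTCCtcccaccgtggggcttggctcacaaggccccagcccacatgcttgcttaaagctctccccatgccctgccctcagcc

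Genes of slow fibres differed little. Of 14 measured members of the slow sarcomere list 8 were higher and 6 lower, and 4 were higher at an unadjusted p under 0.05 (all features 52.8% and 6.32%). The list's median was 0.15, 0.04 without TR2, 0.03 with array weights and -0.02 with normexp background correction, which moved the median of all features to 0.15. Myh7, the slow myosin itself, differed by -0.09 ± 0.11, and by 0.24 with no slide term. Tnni1 was higher by 0.35 ± 0.15, Myl2 (slow regulatory light chain) by 0.29 ± 0.11, Tpm3 (slow tropomyosin) by 0.28 ± 0.13 and Myom3 (an M-band protein of slower fibres) by 0.43 ± 0.19, and none passed the limma test. Each of these had overlapping groups over the 16 arrays. Myom2, an M-band protein of fast fibres, was lower by 0.48 ± 0.13 (limma adjusted p = 0.22, and 0.0112 with array weights).

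Fast-fibre genes had the largest differences and the largest spread. Myh2, the myosin of fast oxidative fibres, was 5.08 to 7.20 on 7 sedentary arrays and -1.50 on SED3. In trained rats it was 0.19, -2.12, -0.36 and -0.65 on TR1, TR2, TR4 and TR5 and 5.25 to 7.03 on the other 4. A trained array was thus either about as high as the sedentary ones or far below them, and the groups overlapped. The difference was -2.51 ± 1.22 (limma adjusted p = 0.485). Myh1, the myosin of fast intermediate fibres, differed by -2.71 ± 1.22 (limma adjusted p = 0.455), with -1.15 on slide 2 and -5.61 on slide 3. Tnni2, fast troponin I, differed by -2.19 ± 1.08 and Mybpc2, the fast myosin-binding protein C, by -2.42 ± 0.93. Mybpc2 was above background on 7 sedentary and 3 trained arrays. The same 4 trained arrays and SED3 were the 5 lowest for Tnni2. The whole list of fast sarcomere genes had 3 of 15 members higher and 12 lower and a median of -0.62, with -0.24 on slide 2 and -1.02 on slide 3. Casq1, the calcium store of the fast sarcoplasmic reticulum, went the other way by 0.25 ± 0.09 and Sln, an inhibitor of the calcium pump, by 0.36 ± 0.14, neither past the limma test.

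**Figure D4:**
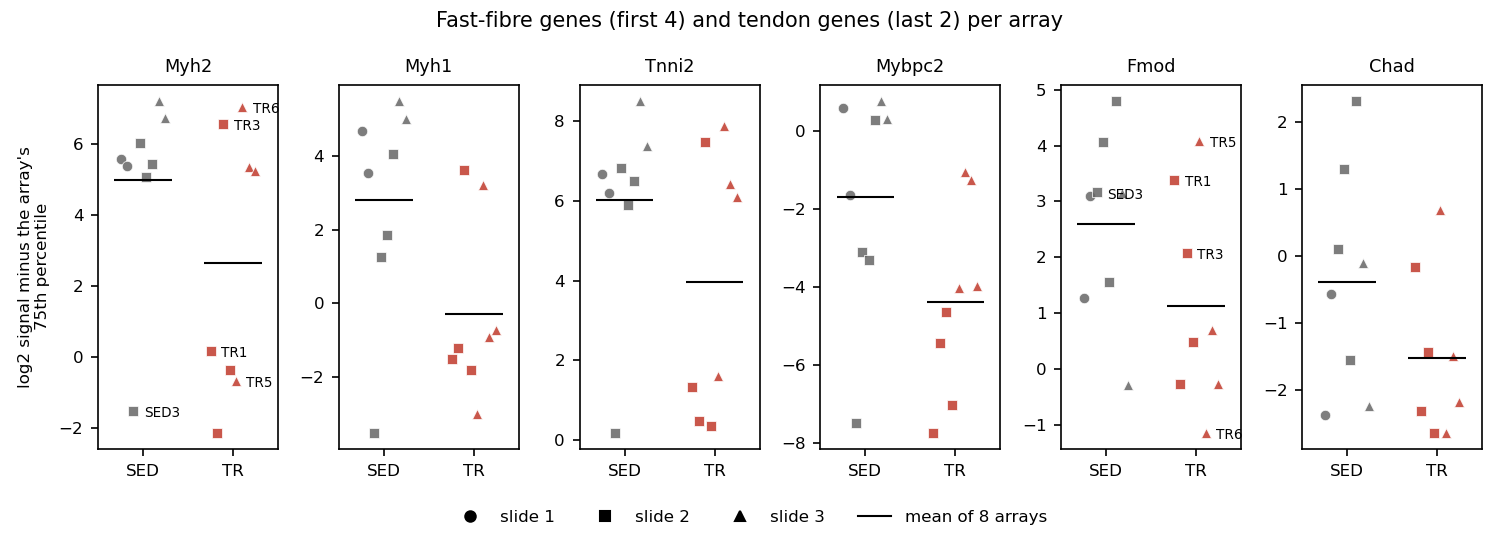
Values per array (log2 signal minus the array's 75th percentile) of 4 fast-fibre genes and 2 tendon genes in sedentary (grey) and trained (red) soleus, with shape for the slide and a line at the mean of 8 arrays. For Myh2 the arrays TR1, TR2, TR4, TR5 and SED3 lie between -2.12 and 0.19 and the others between 5.08 and 7.20, so the groups overlap.

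Tendon genes varied as widely. Fmod (fibromodulin) was -0.29 to 4.80 (median 3.12) in sedentary and -1.14 to 4.09 (median 0.59) in trained rats, highest on SED4, SED6, TR1 and TR5. The difference was -1.40 ± 0.80 (limma adjusted p = 0.547). Comp and Chad, both cartilage and tendon matrix proteins, differed by -0.95 ± 0.55 and -1.17 ± 0.69. Of 13 measured tendon markers 12 were lower and 0 had an unadjusted p under 0.05, against 47.2% and 4.11% of all features. The median was -0.76, with -1.31 on slide 2 and -0.08 on slide 3, -0.44 without TR2, -1.10 with array weights and -0.36 with normexp. The summed level of the list was 14.3 to 81.3 in sedentary and 11.8 to 53.2 in trained rats, on a linear scale where 1 is the array's 75th percentile. The amount of tendon in the piece sampled was not measured.

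Some genes of dividing cells were among the lower genes with the smallest p-values, without passing the test. Kif22, a kinesin of the mitotic spindle, was -4.03 to -2.92 (median -3.26) in sedentary and -5.07 to -3.72 (median -4.12) in trained rats. On slide 2 its sedentary values were -3.43, -2.92, -3.01 and -3.15 and its trained ones -3.88, -4.55, -3.88 and -3.72, with no overlap. It differed by -0.91 ± 0.16 (limma adjusted p = 0.136, and 0.02 with array weights), and by -0.88 and -0.92 on the slides. Rrm2, the regulated subunit of ribonucleotide reductase that makes DNA precursors, was -3.04 to -1.76 (median -2.33) in sedentary and -5.12 to -2.92 (median -3.53) in trained rats. It differed by -1.18 ± 0.26 (limma adjusted p = 0.167), and by -1.16 and -1.19 on the slides. Neither slide showed overlap for Rrm2.

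Other members of this group lay close behind. Cdk1, the kinase that starts mitosis, was -3.54 to -2.60 in sedentary and -3.90 to -3.43 in trained rats and differed by -0.73 ± 0.18 (limma adjusted p = 0.201), with no overlap on either slide. Aurka, a spindle kinase, differed by -0.66 ± 0.16. Chaf1b, which loads histones onto new DNA and was not in the cell cycle list, differed by -0.81 ± 0.18. All 5 genes were dim. They were well above background on all 8 sedentary arrays, on the 4 trained arrays of slide 2 and on TR6, and not on TR5, TR7 and TR8, the dimmest arrays. The slide 3 values of those trained arrays are thus near the limit of the signal, and the slide 2 differences do not rest on them.

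Over the list of cell cycle and replication genes the split between higher and lower members varied with the setting. Of 29 measured members 12 were higher and 17 lower, 0 higher and 9 lower at an unadjusted p under 0.05 (all features 6.32% and 4.11%), and 3 lower members passed with array weights. With array weights 3 were higher and 26 lower (all features 9925 and 10417). With quantile normalisation 5 were higher and 24 lower (all features 8831 and 11511), and in the authors' normalised values also 5 and 24 (8659 and 11683). With normexp these were 16 and 13 (14778 and 5564), and with no slide term 15 and 14 (11395 and 8947). No overlap on both slides was found for 4 members, against 109 of 20342 features. The median was -0.09, with -0.16 on slide 2 and -0.26 on slide 3, -0.28 in the authors' normalised values, -0.15 without TR2 and -0.17 with array weights. It turned to 0.14 with normexp background correction, which moved the median of all features to 0.15, and to 0.02 with no slide term. Satellite cell markers differed by a median of -0.09 over 10 genes. Among the myogenic factors Myod1, which drives satellite cells into the muscle programme, differed by -0.95 ± 0.29 (limma adjusted p = 0.299), and Myf5, found in quiescent satellite cells, by 0.43 ± 0.14 (limma adjusted p = 0.348).

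The promoters of the 2 cell cycle genes with matches are shown because such words are common in genes of dividing cells. Capitals mark matches on either strand to the word CCAAT, the word TTTGAA and 4 E2F-type words (TTTGGCGC, TTTCCCGC, TTTGCCGC and TTTCGCGC), from RefSeq in build GRCr8 over 250 bases before the start. Of 33469 windows, 34.0% hold CCAAT, 16.2% TTTGAA and 1.73% an E2F-type word. Cdk1, on the plus strand at chr20:19265043-19265292, holds CCAAT 3 times, TTTGAA 2 times and an E2F-type word 1 time. Kif22, on the minus strand at chr1:191080879-191081128, holds CCAAT 2 times and TTTGAA 1 time. The windows of Aurka and Chaf1b held none of these words, which says only that these letters are not there.
Cdk1: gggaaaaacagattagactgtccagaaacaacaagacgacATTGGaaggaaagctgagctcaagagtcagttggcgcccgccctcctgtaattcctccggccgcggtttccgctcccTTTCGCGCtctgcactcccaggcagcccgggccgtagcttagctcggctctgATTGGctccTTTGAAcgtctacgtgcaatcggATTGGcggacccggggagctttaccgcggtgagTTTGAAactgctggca
Kif22: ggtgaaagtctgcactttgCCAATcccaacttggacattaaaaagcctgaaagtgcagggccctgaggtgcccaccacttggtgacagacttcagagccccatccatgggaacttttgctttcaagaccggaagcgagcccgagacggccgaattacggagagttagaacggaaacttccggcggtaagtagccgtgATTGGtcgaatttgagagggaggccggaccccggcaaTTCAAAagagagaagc

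Of 22 measured complement genes 15 were higher in trained rats on both slides, against 5741 of 20342 features, and none passed the limma test. C6, a component of the terminal membrane attack complex, was -2.89 to -0.91 (median -1.94) in sedentary and -2.37 to 0.05 (median -0.39) in trained rats. On slide 2 its trained values were 0.05, -0.12, -0.13 and -0.16 and its sedentary ones -0.91, -1.25, -1.85 and -1.96, with no overlap. On slide 3 TR6, at -2.37, fell between SED7 and SED8. The difference was 1.19 ± 0.23, or 2.28-fold (limma adjusted p = 0.136), and 0.0112 with array weights. C7, the next component of that complex, was higher by 0.67 ± 0.23, C4a by 0.55 ± 0.17, C1s, a protease of the classical pathway, by 0.41 ± 0.14 and Cfd, the adipose-derived factor D, by 0.58 ± 0.21, with limma adjusted p-values of 0.302 to 0.374. On slide 3 C7, C4a, C1s and Cfd were highest on TR7 and TR8, which were among the dimmest arrays, and C6 was highest on TR5. On slide 2 the highest trained value of C7, C4a, C1s and Cfd was that of TR2, and that of C6 was on TR1.

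As a list, 19 of 22 measured complement genes were higher and 3 lower, with 8 higher and 0 lower at an unadjusted p under 0.05. Over all features 52.8% were higher, and 6.32% were higher and 4.11% lower at that p. The median difference was 0.32, with 0.27 on slide 2 and 0.24 on slide 3. It lay between 0.14 and 0.36 in each setting tried and was lowest with array weights. Macrophage markers moved with it, and the lists share the C1q genes. Of 18 measured 16 were higher, 6 of them at an unadjusted p under 0.05 (all features 52.8% and 6.32%), with a median of 0.35 (0.41 and 0.23 on the slides, and 0.19 with array weights). Mrc1, the mannose receptor of resident macrophages, was higher by 0.75 ± 0.22 (limma adjusted p = 0.269) but above background on 5 sedentary and 4 trained arrays. Ctss (a lysosomal protease) was higher by 0.54 ± 0.19, Lyve1 (a receptor for hyaluronan) by 0.56 ± 0.19 and C1qc by 0.60 ± 0.23. On slide 3 Ctss and C1qc were highest on TR7 and TR8, and on TR6 they lay below both sedentary arrays. The summed level of the macrophage markers was 16.7 to 34.5 (median 26.0) in sedentary and 13.8 to 53.2 (median 33.3) in trained rats, so the groups overlapped. The defining marker Cd68 was -1.04 to 0.05 in sedentary and -0.76 to 0.09 in trained rats, also with overlap. The part of macrophage content in the complement values was not tested.

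Most markers of fat cells were higher too, but the list's direction depended on the setting. Of 12 measured 8 were higher, 4 of them at an unadjusted p under 0.05, against 52.8% and 6.32% of all features, with a median of 0.20. It turned to -0.03 with quantile normalisation and in the authors' normalised values, where the median of all features was -0.03 and -0.04. Of the 7 members above background on all 24 arrays, 3 were higher and 4 lower, with a median of -0.02 (all such features 0.01). Retn (resistin) was higher by 0.88 ± 0.30 and Adipoq (adiponectin) by 0.81 ± 0.36. Pck1, a gene of glycerol synthesis in fat, was higher by 1.37 ± 0.50 and above background on 3 sedentary and 5 trained arrays. The summed level of the list was 11.2 to 27.4 (median 21.3) in sedentary and 12.9 to 30.3 (median 18.9) in trained rats. Its median was thus lower in trained rats, without adjustment for slide. The part of fat cell content in these values was not tested. The lipid synthesis genes Scd2 (a desaturase), Acly (ATP citrate lyase) and Fasn (fatty acid synthase) were higher by 0.53 ± 0.20, 0.24 ± 0.10 and 0.50 ± 0.26. None of these passed the limma test.

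Other genes that led the higher side and were well above background in all 16 rats belong to several functions. Tspan13, a membrane tetraspanin, was higher by 0.47 ± 0.10 and Irgq, a GTPase-like protein, by 0.37 ± 0.08, both with no overlap on either slide. Adcy2, which makes cyclic AMP, was higher by 0.52 ± 0.11 and F3 (tissue factor), which starts coagulation, by 0.51 ± 0.12, again with no overlap on either slide. Slc3a1, a subunit of an amino acid transporter, was higher by 0.48 ± 0.11, Slc37a2, a sugar-phosphate exchanger, by 0.82 ± 0.19, Mogat1, an enzyme of triglyceride synthesis, by 0.87 ± 0.20, Schip1, a cytoskeletal partner of schwannomin, by 0.50 ± 0.11 and Ctbp2, a corepressor, by 0.41 ± 0.10. Limma adjusted p-values of all of these were 0.167 to 0.169. The largest difference on this side was that of Ceacam16, a cell adhesion protein, at 1.56 ± 0.37, with 1.81 on slide 2 and 1.42 on slide 3.

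Further genes on the higher side passed the limma test with array weights, but not without them. As the trained side of that fit rests mostly on TR1, TR3 and TR4 of slide 2, it is not independent support. Kcnq1, a potassium channel, was higher by 0.73 ± 0.20, by 1.13 on slide 2 and by 0.17 on slide 3. Scn3a, a sodium channel, was higher by 0.54 ± 0.13 and Tenm2, a teneurin of cell contacts, by 0.57 ± 0.15. Cdh1 (E-cadherin) was higher by 0.77 ± 0.17 with no overlap on either slide, but was above background on 5 arrays of each group. Zp2, named for an egg coat protein, was higher by 0.92 ± 0.20, by 1.38 on slide 2 and by 0.39 on slide 3. With array weights Kcnq1 (0.0176), Scn3a (0.0328), Tenm2 (0.0112), Cdh1 (0.0112) and Zp2 (0.0112) had limma adjusted p-values under the threshold.

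Other genes on the lower side with small p-values had various functions. Mustn1, a small protein that rises in regenerating muscle, was 2.88 to 4.45 (median 3.69) in sedentary and 1.26 to 3.81 (median 2.56) in trained rats, with overlap. It differed by -1.49 ± 0.36 (limma adjusted p = 0.178), a second probe by -1.48 ± 0.35. Deptor, an inhibitor of the growth kinase mTOR, differed by -0.59 ± 0.13, by -0.52 on slide 2 and by -0.80 on slide 3. Padi2, an enzyme that converts arginine in proteins to citrulline, differed by -1.77 ± 0.42, more than the other genes of this paragraph, and its groups overlapped on both slides. Impa2, an inositol phosphatase, had medians of 2.36 in sedentary and 1.41 in trained rats and differed by -0.75 ± 0.17 with no overlap on either slide. Clu (clusterin), an extracellular chaperone, differed by -0.62 ± 0.17, by -0.93 on slide 2 and by -0.12 on slide 3.

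Among the other lower genes, several were not above background on every trained array. Serpinf2, the plasmin inhibitor, differed by -1.25 ± 0.26 and was above background on 7 sedentary and 3 trained arrays. Nxnl2, a thioredoxin-like protein, differed by -0.68 ± 0.15, Lrrn1, a neuronal membrane protein, by -0.59 ± 0.14 and Irak1bp1, a partner of an interleukin receptor kinase, by -0.52 ± 0.12, and these were above background on 4, 5 and 5 trained arrays. Nxnl2 and Irak1bp1 turned to 0.02 and 0.09 with normexp background correction, where the median of all features was 0.15. Acot4, a peroxisomal thioesterase, differed by -1.34 ± 0.37, Chchd6, a protein of mitochondrial cristae, by -0.65 ± 0.16, both above background on 6 trained arrays. Ankrd24, an ankyrin repeat protein above background on all 16 arrays, differed by -0.63 ± 0.15. Apln (apelin), a peptide that contracting muscle secretes, differed by -0.78 ± 0.20 (limma adjusted p = 0.201), with overlap on both slides, and was above background on 6 trained arrays.

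In the list of endoplasmic reticulum and integrated stress genes 6 of 21 were higher and 15 lower, with 1 and 4 at an unadjusted p under 0.05, and the median was -0.20, -0.23 on slide 2 and -0.03 on slide 3. Of all features 47.2% were lower and 4.11% lower at that p, and without TR2 the list's median was -0.04. Heat shock genes had 14 of 25 members higher and a median of 0.02, and antioxidant genes 17 of 26 and 0.07. Creld2, a chaperone of the endoplasmic reticulum, differed by -0.50 ± 0.13, and by 0.10 with normexp (median of all features 0.15). It was not well above background on TR5, TR7 and TR8. Herpud1, which helps degrade misfolded proteins, differed by -0.30 ± 0.11. Ddit3, a stress transcription factor, differed by -0.85 ± 0.35, and by -0.42 without TR2, where its spots disagreed. Atf3, another stress factor, went the other way by 0.79 ± 0.31 with no overlap on slide 2 or slide 3. On slide 1, however, SED2 was at 2.48, above every trained array (highest 2.03). Among immediate early genes Fos differed by -0.89 ± 0.38, Egr1 by -0.99 ± 0.52 and Nr4a3 by -1.14 ± 0.59, none past the limma test, and the median of that list was -0.01 (10 of 22 higher). Fos was above background on 5 trained arrays and Nr4a3 on 4, none of them on slide 3 for Nr4a3. Hspa8, the constitutive heat shock protein, differed by -0.26 ± 0.10.

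Genes of the cell membrane, the junction and growth factors held small differences in both directions. Igf2r, which clears insulin-like growth factor 2, was higher by 0.37 ± 0.09 (limma adjusted p = 0.201), with no overlap on either slide. Sgca (alpha-sarcoglycan) was higher by 0.41 ± 0.14, by 0.14 on slide 2 and 0.89 on slide 3, and differed by -0.36 with no slide term. Vcl (vinculin) differed by -0.45 ± 0.14 and Tln1 (talin), its partner at the membrane, by -0.31 ± 0.14. Vcl differed by -0.30 without TR2. At the neuromuscular junction Dok7, which clusters acetylcholine receptors, was higher by 0.49 ± 0.15 and Chrnd, a subunit of that receptor, by 0.44 ± 0.18. Ryr1, the calcium release channel, was higher by 0.23 ± 0.09. None passed the limma test.

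Differences of a similar size, again none past the limma test, were found for growth factor and chromatin genes. Tgfb2, a growth factor that restrains muscle differentiation, was higher by 0.34 ± 0.13. Id2, an inhibitor of myogenic factors, differed by -0.32 ± 0.13 and Smad2, a mediator of that pathway, by -0.31 ± 0.10, which turned to 0.16 with normexp. Tet1 and Tet3, enzymes that oxidise methylated DNA, differed by -0.48 ± 0.17 and -0.39 ± 0.14, and Tet1 turned to 0.15 with normexp. The median of all features was also 0.15 with normexp. Ccl6, a chemokine of myeloid cells, was higher by 0.46 ± 0.15. In the matrix, Timp4, an inhibitor of metalloproteinases, was higher by 0.39 ± 0.13 with no overlap on either slide, Loxl2, which crosslinks collagen, differed by -0.39 ± 0.14 and Postn (periostin) by -0.78 ± 0.30. Col1a1, the main collagen, differed by -1.39 ± 0.58, and by -0.81 without TR2, whose spots disagreed. Collagens as a list had 6 of 23 members higher and a median of -0.07.

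Mitochondrial genes, the usual target of endurance training, had medians of opposite sign on the slides, a difference that was not tested for whole lists. Complex I had a median of 0.18 on slide 2, where 29 of 36 genes were higher, and -0.20 on slide 3, where 5 were. Complexes III to V had 0.19 and -0.13, the citrate cycle 0.16 and -0.15, and the mitochondrial ribosome 0.13 and -0.19. With both slides together the medians were 0.01, 0.02, 0.04 and -0.02, beside 0.01 for all features. These medians changed sign with the setting. For complex I 20 of 36 genes were higher with both slides, 32 with array weights (median 0.09), 14 without TR2 (-0.02), 9 with no slide term (-0.13) and 7 with normexp (-0.08). Complexes III to V had -0.04, the citrate cycle -0.01 and the mitochondrial ribosome -0.05 without TR2, and 0.06, 0.08 and 0.05 with array weights. Single members lay on the high side, among them Ndufa10 and Ndufa9 of complex I at 0.20 ± 0.08 and 0.16 ± 0.07, Cox7b of complex IV at 0.20 ± 0.08, Idh3b at 0.24 ± 0.11, Mdh1 at 0.20 ± 0.09 and Ogdh at 0.48 ± 0.21 of the citrate cycle, and Etfa of fatty acid oxidation at 0.22 ± 0.09. None passed the limma test. The proteasome had medians of 0.16 on slide 2 and -0.11 on slide 3, and the cytosolic ribosome 0.05 and -0.30, with 39 of 58 genes higher on slide 2 and 1 on slide 3. With both slides 3 ribosomal genes were higher and 55 lower (median -0.11), and without TR2 0 were higher and 58 lower (-0.16). Of the latter, Rpl12 differed by -0.11 on slide 2 and -0.29 on slide 3.

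**Figure D5:**
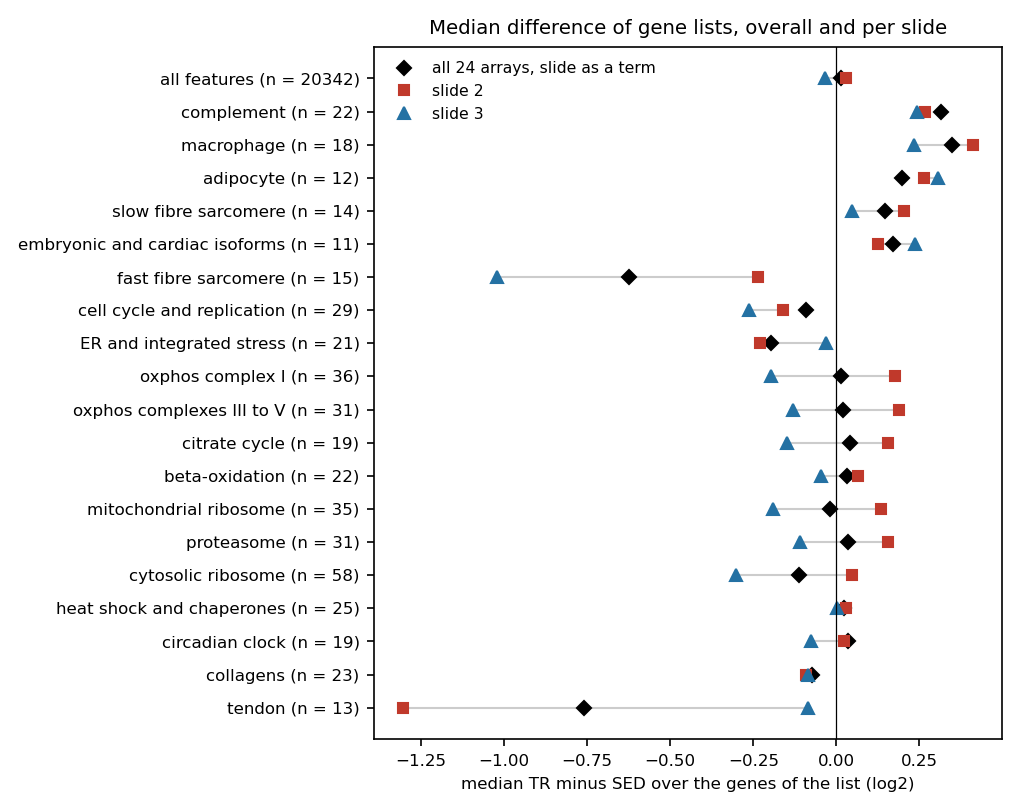
Median difference between trained and sedentary soleus (log2) over the genes of each list, fitted on all 24 arrays with slide as a term (diamonds), on slide 2 (squares) and on slide 3 (triangles), with the number of measured genes in brackets. Complement and macrophage lists lie to the right on both slides, while oxidative phosphorylation, proteasome and ribosome lists lie to the right on slide 2 and to the left on slide 3.

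On slide 3 the trained arrays TR5, TR7 and TR8 were dimmer than SED7 and SED8, and on slide 2 TR2 was dimmer than the sedentary arrays. The part of brightness in the slide differences was not tested. Fuel genes that respond to exercise did not separate the groups. Pdk4, which blocks glucose oxidation, was -2.26 to 0.52 in sedentary and -3.08 to 0.57 in trained rats and differed by -0.35 ± 0.48. Ucp3, a mitochondrial carrier, differed by -1.16 ± 0.70, and Pfkm, the muscle phosphofructokinase, by -0.35 ± 0.15, with -0.21 without TR2. Heat shock and circadian lists had medians of 0.02 and 0.03.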

How the data were processed

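Arrays were grouped by their titles, and each sample was counted as 1 rat, as the design text gives 8 rats per group. The authors deposited scanner files with spot intensity from Agilent Feature Extraction, which had subtracted background within each array, per the file headers. Version 11.5.11.1 is named in the submitters' processing notes and 11.5.1.1 in the headers. Log2 normalised values that the authors deposited for these arrays served as an alternative. Which tool made them is not stated in any label or header.

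Of 62976 spots per array, the 4259 controls and outlier spots were dropped, log2 processed signals were scaled to the 75th percentile, and spots of a probe were averaged, giving 30367 probes. Of these 18635 were named by accession through RefSeq, 5637 kept the files' name and 6095 had none. The test covered 1 probe per gene (highest mean), kept if 8 or more of the 24 arrays were well above background, in all 20342, of which 15853 had a name and 29 a missing value. Of 2767 genes with several probes, 1227 had probes of different sign.

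The test was limma 3.58.1 in R 4.3.3 (lmFit and eBayes) with group and slide over 24 arrays and Benjamini-Hochberg adjustment at 0.05. Slides 2 and 3 and their difference came from a model with 1 mean per group and slide. The procedure was tested on simulated data. The number of arrays limits the precision. No pair of arrays was identical, with a highest correlation of 0.995. Replicate numbers did not pair the samples (correlations of deviations -0.224 to 0.0993). The members, gene lists and naming rule were chosen with earlier results of these data known. Genes in the text are those with the smallest p-values over all arrays, with array weights, on slide 2 alone or per list, the largest differences, those without overlap on both slides, and a fixed set of muscle genes; Pax1 and Pde1a come from the slide 3 count. Some results are not reported here. Alternatives included other normalisations, normexp (offset 50) on median spot signals because the files hold no mean, other filters, array weights and left-out arrays.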

Additional observations from a re-analysis of the deposited data

Results flagged for a closer look

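In 13 of 226 groups of 8 arrays looked at, 1 array lay further from its nearest neighbour than Dixon's critical value at 95% allows; chance gives about 1 in 20. Of these, 6 were on TR2, and the replicate spots of all 6 were more than 4-fold apart: Myh3 at 2.11, Csrp3 at 1.79, Ddit3 at -0.0021, Vcl at -1.14, Col1a1 at -1.72 and Pfkm at 3.63. The spots of Csrp3 read -3.45 and 7.02, those of Ddit3 -3.86 and 3.86 and those of Col1a1 -5.73 and 2.29. Vcl had 10 spots between -5.21 and 0.68.

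On SED3 the fast-fibre genes Myh2 at -1.50, Myh1 at -3.51 and Tnni2 at 0.18 lay far below the other 7 sedentary arrays, and their spots agreed. The remaining values were Csrp3 at 5.10 on SED2 and Lyve1 at -2.33 on TR6, both with agreeing spots, and Rpl12 at 4.86 on SED7 and Acot4 at -5.27 on TR5, with 1 spot each.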

How the results depend on the processing

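The count of features at an adjusted p of 0.05, which was 0, was 2 with normexp (Ripply1 and C6), 1 in the authors' normalised values (Myh3), 81 with array weights, 2 with all probes, and 0 to 3 with each array left out, highest without SED3 and without TR6. The alternatives chosen after seeing the data gave 1 without slide 3 (Fpr-rs4), 2 without TR2, TR5, TR7 and TR8 (Fpr-rs4 and Myh3), and 2 with values of spots over 4-fold apart left out, or 3 with all probes, among them both Myh3 probes. With the replicate number as a block it was 4 (Kcnj12, Slc37a2, Mrc1 and C1qtnf1), and the count at an unadjusted p under 0.05 was 4200; these numbers do not pair the samples. That count, 2121 otherwise, was 4774 with normexp, 1276 with features above background on all 24 arrays, 1165 with only trained and sedentary arrays, 1054 with those of slides 2 and 3, and 1573 to 3319 with each array left out. Slide 2 gave 136 calls with array weights. Slide 3 gave 28 with quantile normalisation, 30 in the authors' normalised values, 3414 with array weights and 0 alone; the slide difference gave 2505 with array weights. The causes were not tested. The share keeping its sign from slide 2 was 60.3% with features above background on all arrays and 60.5% without TR2, and from slide 3 60.2% without TR2, against 63.9% and 67.6%.

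Of 110 genes followed, 103 kept their direction in each setting run. With normexp Nxnl2 was 0.015, Irak1bp1 0.091, Creld2 0.10, Smad2 0.16 and Tet1 0.15, beside a median of 0.15 for all features. With no slide term Myh7 was 0.24 and Sgca -0.36. The brighter Myh3 probe was 0.13 without slide 3. Signal near background limits dim genes on TR5, TR7 and TR8, among them those of the cell cycle.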
